A study of Mus musculus with 14 samples.

Results

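The genes described here are 10 early response genes known to be induced in thymocytes when the T cell receptor is engaged during selection: Nr4a1, Egr1, Egr2, Egr3, Fos, Jun, Junb, Ier2, Cd69 and Cd5. They were chosen as every probe set annotated to one of these genes and to no other gene. Of the 10 genes, 9 had such a probe set, giving 11 of the 22690 probe sets on the array, and Cd69 was not analysed here. The 9 genes stood among 12385 genes with a symbol of their own and among the 8212 genes that were bright enough to be tested. Egr2 and Jun had 2 probe sets each, and the second one of Jun was too dim to be tested.

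Thymus RNA of female C57BL/6 mice, an inbred strain, was measured on 14 Affymetrix oligonucleotide arrays in 7 groups of 2. All mice, the controls included, arrived at 21 days of age, were ovariectomised at 26 days and received an AIN-93G diet without phytoestrogens from 2 days after the operation, and treatment began at 30 days. The control group was untreated and taken at day 0. The estradiol groups were injected under the skin each day with 17β-estradiol, an ovarian hormone, at 125 ng per 0.02 ml of corn oil, and were taken on days 2, 3 and 6. The genistein groups ate a diet holding 1500 ppm of genistein, an isoflavone of soy with affinity for estrogen receptors, and were taken on the same days. Each group held 6 animals in 2 pools of 3, and each array held 1 pool, so a p-value measures the spread between pools. Untreated arrays of days 2, 3 and 6 were not analysed here, so treatment and time since its start cannot be told apart against control, and the labels list oil injections for the estradiol groups only.

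In the thymic cortex, double-positive thymocytes, which carry both Cd4 and Cd8, survive if their T cell receptor binds self-peptide on MHC molecules with moderate strength. The signal passes through calcium and the Ras-Erk kinase cascade to transcription factors already present in the cell, among them serum response factor with its Elk partners, which bind CArG boxes. Immediate early genes such as the Egr, Nr4a and AP-1 families are then transcribed without new protein synthesis, while Cd69 and Cd5 mark the signalled cell on its surface. None of the arrays separates thymocytes by whether they had received such a signal, and the whole organ was measured.

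Promoter windows that held a searched motif are shown first, because they show the kind of element through which this response is known to act. RefSeq windows of GRCm38.p6, taken as the 250 bases before each transcript start, were searched for 6 of the genes (Jun, Junb, Egr2, Fos, Nr4a1 and Cd5), in 10 windows of which 5 belonged to Egr2. No window of Egr1, Egr3, Ier2 or Cd69 was searched, so nothing is said here of the motifs in their promoters. Both strands were searched for the CArG box, the cyclic AMP response element TGACGTCA, the AP-1 site TGAGTCA with its reverse complement TGACTCA, and the Egr site GCGNGGGCG. All windows shown lie on the plus strand of the genome, and capitals mark the CArG box in the Egr2 windows and the Egr site, which is read on the opposite strand, in the Nr4a1 window.
Egr2 window at chr10:67537619-67537868: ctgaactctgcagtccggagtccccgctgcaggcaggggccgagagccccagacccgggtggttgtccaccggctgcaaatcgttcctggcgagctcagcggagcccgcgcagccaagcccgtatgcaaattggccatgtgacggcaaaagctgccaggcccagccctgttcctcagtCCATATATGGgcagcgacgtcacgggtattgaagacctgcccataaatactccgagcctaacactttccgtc
Egr2 window at chr10:67537316-67537565: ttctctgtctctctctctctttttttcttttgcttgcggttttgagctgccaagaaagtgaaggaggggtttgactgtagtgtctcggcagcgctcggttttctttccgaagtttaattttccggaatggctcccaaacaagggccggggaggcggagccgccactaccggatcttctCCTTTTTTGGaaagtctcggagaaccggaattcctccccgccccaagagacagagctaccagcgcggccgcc
Nr4a1 window at chr15:101266596-101266845: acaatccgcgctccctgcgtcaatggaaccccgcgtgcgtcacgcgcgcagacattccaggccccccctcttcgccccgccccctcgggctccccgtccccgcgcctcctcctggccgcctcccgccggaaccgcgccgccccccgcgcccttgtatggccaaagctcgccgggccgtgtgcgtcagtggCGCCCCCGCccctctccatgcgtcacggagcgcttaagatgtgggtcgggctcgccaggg
In the Egr2 windows shown the CArG box lay at -72 to -63 from the transcript start, and the Egr site of Nr4a1 lay at -60 to -52. Of 32851 windows of this length in the table, 1.467% held a CArG box, and 4.697% held an Egr site. Neither the cyclic AMP response element (1.546% of all windows) nor the AP-1 site (4.463%) occurred with its exact letters in the windows of these 6 genes. Elements that differ from a searched motif in 1 or more letters were not looked for and may be present, in Fos and Jun as well. A further 2 Egr2 windows, which overlap the first one shown and are not printed, held the same box at -73 to -64 and at -133 to -124 from their own starts. The Egr2 windows are therefore not separate counts, and a match of letters is a description of the sequence.

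Deposited signals had been scaled by the authors, and 11 arrays shared a trimmed mean of 150.04 while 3 did not. These were the second array of estradiol day 2, at 1.49 times that value, and both arrays of estradiol day 3, at 2.00 and 2.23 times, and all signals below were brought to the common value first. The ratio of 3' to 5' Gapdh signal, a measure of RNA quality, was 0.867 to 1.10 on 12 arrays, 1.27 on the first array of estradiol day 2 and 1.503 on the first of genistein day 6. Rag1, Cd4 and Cd8a, which define double-positive thymocytes, were present on every array, with signals of 1917 to 2962, 485 to 1132 and 1583 to 2128. In the fit by limma across 13575 probe sets none of them passed the test in any of 12 comparisons between groups, as for estradiol over the mean of its days against control (log2 changes of 0.01, 0.20 and -0.06, adjusted p = 0.980, 0.703 and 0.828).

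None of the 9 genes passed the test in any of 12 comparisons between groups or in 3 F tests over days, at an adjusted p under 0.05 by limma with Benjamini-Hochberg adjustment. Few probe sets passed at all. The share called was 0.0884%, 0.0663% and 0.656% for estradiol at days 2, 3 and 6 against control, and 0.604% for the mean of its days. For genistein it was 0.0147%, 0.00737% and 0.00737% by day and 0.0368% for the mean of days. Between the treatments it was 0.081%, 0.0147% and 0.265% by day and 1.41% over the mean of days. The F tests called 0.0221% of probe sets for the days of estradiol, and none for the days of genistein or for the interaction, where 786 and 575 probe sets had an unadjusted p under 0.05. Over the 9 genes and 12 comparisons, 16 of 108 changes, or 14.8%, had an unadjusted p under 0.05, against 11.1% over all tested genes. The 95% interval of a log2 change reached a median of 0.375 to either side of the estimate at a single day and 0.217 between the treatments over all days. These intervals are not adjusted for the number of probe sets, and differences well beyond them also failed the adjusted test, such as the 1.01 of Egr3 between the treatments at day 2.

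**Figure D1:**
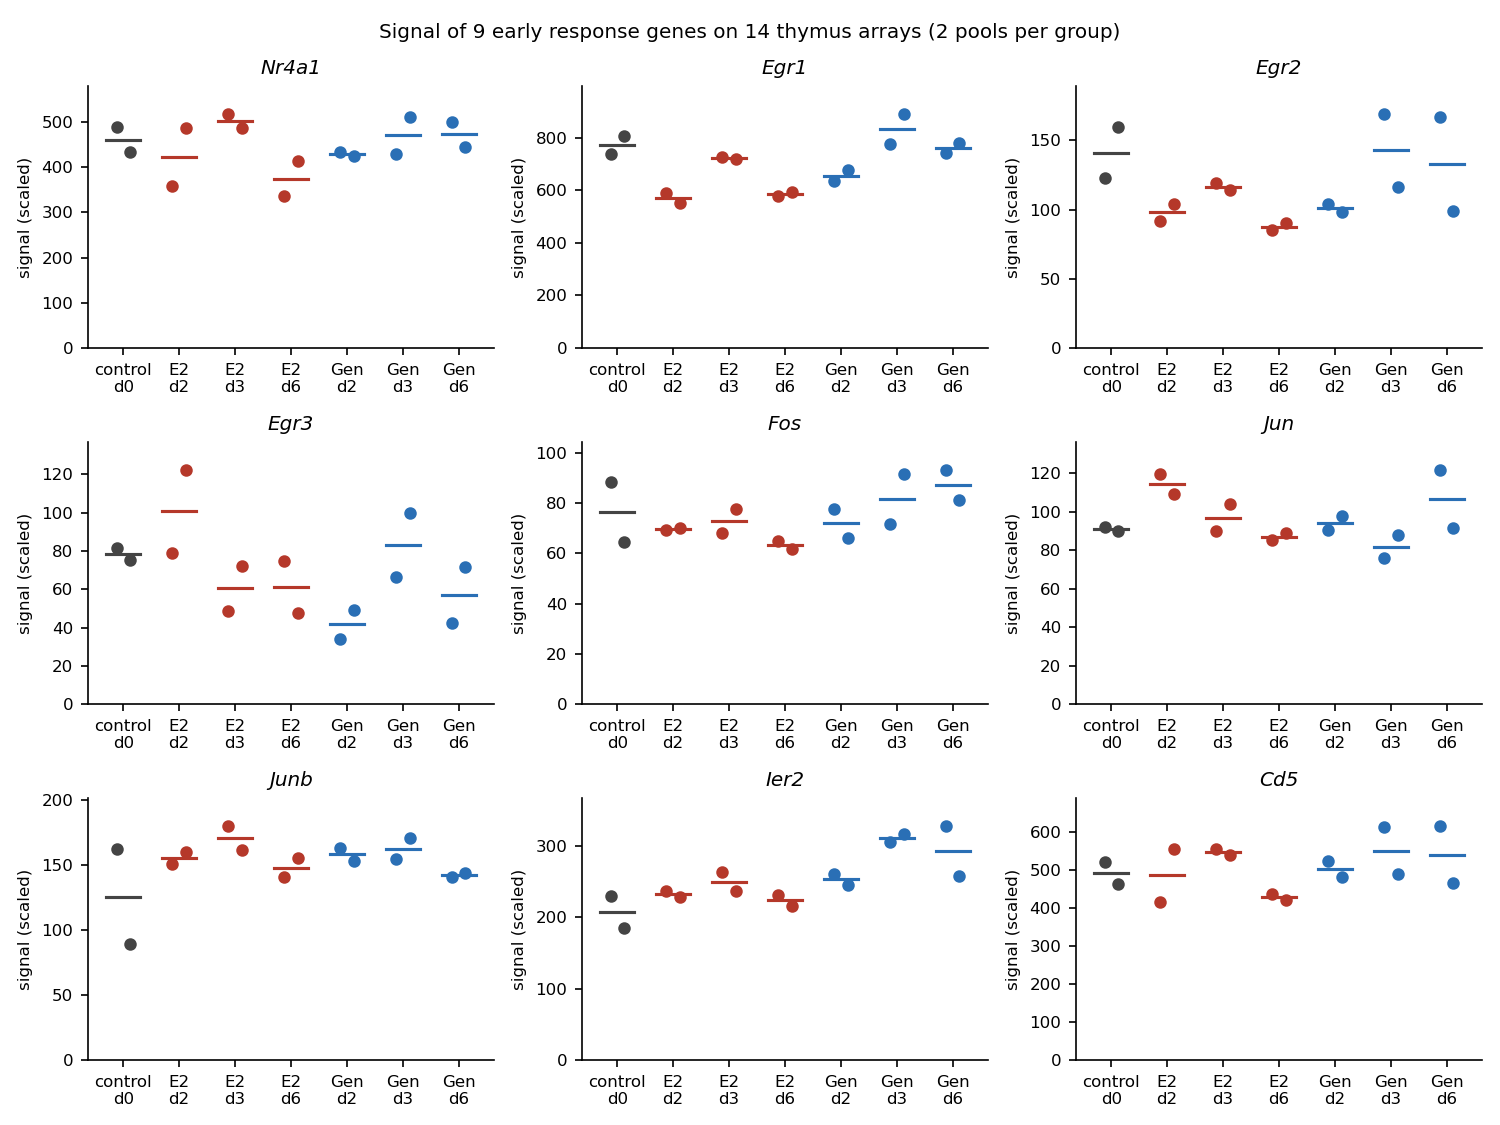
Signal of the 9 measured early response genes (vertical axis, rescaled MAS5 signal) by group (horizontal axis), 1 panel per gene; each point is 1 array of pooled RNA and each bar the mean of the 2 arrays of a group. Egr1 lies between 552 and 593 at days 2 and 6 of estradiol, below all other arrays, and the control points of Junb lie far apart at 163 and 89.1.

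Among the Egr zinc finger factors, which carry the receptor signal to later genes, Egr1 had the smallest error, with an SE of 0.124 for the log2 difference of a single day. Its signal was 736 and 805 in the controls, 588 and 552 at day 2 of estradiol, 725 and 717 at day 3, and 579 and 593 at day 6. Genistein arrays gave 633 and 678 on day 2, 775 and 889 on day 3, and 743 and 781 on day 6. The 4 estradiol arrays of days 2 and 6 were thus the lowest of all 14, and all 6 estradiol arrays lay below both controls, while genistein arrays lay on either side of them.

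In order, the group means of Egr1 were 832 ± 80.5 (SD, n = 2) for genistein day 3, 770.4 ± 48.4 for control, 762 ± 26.7 for genistein day 6, 721 ± 6.23 for estradiol day 3, 655 ± 31.3 for genistein day 2, 586 ± 10.1 for estradiol day 6 and 570.2 ± 25.8 for estradiol day 2. The first 3 groups overlapped one another and so did the last 2, while every other step between neighbours was a gap without overlap. On the log2 scale, taken after adding 16 to each signal, Egr1 differed from control by -0.42 ± 0.124 (SE) at day 2 of estradiol (limma adjusted p = 0.250), by -0.09 at day 3 (adjusted p = 0.836) and by -0.38 ± 0.124 at day 6 (adjusted p = 0.176). Over the mean of days the difference was -0.30 with a 95% interval of -0.52 to -0.08 for estradiol (limma adjusted p = 0.189) and -0.04 for genistein (adjusted p = 0.898). Set against genistein, with days averaged, estradiol gave -0.25 ± 0.0718, an 0.838-fold level, with an interval of -0.41 to -0.10 and an adjusted p of 0.0922 by limma, the smallest of any gene of the set. Without the 3 arrays deposited at another scale, so with days 2 and 6 standing for the mean, Egr1 under estradiol was -0.38 from control and -0.26 from genistein (limma adjusted p = 0.280 and 0.365). With the values as deposited, which leave those arrays at their higher scale, the sign turned, to 0.15 and 0.19 (limma adjusted p = 0.430 and 0.125). The F test over the days of estradiol gave Egr1 an unadjusted p of 0.0369 and an adjusted p of 0.699 in limma.

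Egr2, whose loss together with Egr1 is known to impair positive selection, was read by 2 probe sets, and values are of the one with the higher mean unless stated. Its signal was 123 and 159.8 in the controls, 91.7 and 104 at day 2 of estradiol, 119 and 114 at day 3, and 85.2 and 90.1 at day 6. Under genistein it was 104 and 98.5 on day 2, 169 and 117 on day 3, and 167 and 98.7 on day 6. As with Egr1, all 6 estradiol arrays lay below both controls, and day 6 of estradiol held the lowest pair.

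The differences of Egr2 from control were -0.46 at day 2 of estradiol (limma adjusted p = 0.429), -0.59 ± 0.223 at day 6, with an interval of -1.07 to -0.11 (adjusted p = 0.259), and -0.43 over the mean of days (adjusted p = 0.293). Without the 3 arrays at another scale that mean was -0.56 (limma adjusted p = 0.376). Genistein over the mean of days gave -0.17 (limma adjusted p = 0.745). The second probe set of Egr2, with signals of 26.6 to 86.1, did not follow the first. At day 6 of estradiol it gave 0.04, and across the 14 arrays the probe sets correlated at r = 0.149 (Spearman's rho 0.121), so the low Egr2 signal of estradiol day 6 rests on 1 of its 2 probe sets.

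Arrays of 2 groups that do not overlap are common in a design of this size. None of the 9 genes separated all 6 estradiol from all 6 genistein arrays, as 1.07% of tested genes did with estradiol above and 0.438% with estradiol below. All 6 estradiol arrays lay below both controls for 7.29% of tested genes and above them for 8.73%, against 2 of the 9 early response genes below (Egr1 and Egr2) and 0 above. With quantile normalization Egr2 alone remained, and with the values as deposited neither did. Beside these differences, the signals of other cell types also moved with estradiol. The summed signal of 10 thymic epithelial markers was 5165 to 5549 in the controls and 6862 to 8076 under estradiol, with 4 of 10 passing the test over the mean of its days. Under genistein that sum was 6004 to 6872, also above both controls, with 0 of 10 passing over the mean of days. The adipocyte sum over 7 genes was 1334 to 1423 in the controls and 2025 to 3385 under estradiol, with 3 of 6 tested markers passing, and the neutrophil sum over 7 genes went from a range of 837 to 884 to one of 1302 to 1906, with 0 of 5 passing against control. Sums of macrophage, dendritic cell, fibroblast and B cell markers also lay above both controls on all 6 estradiol arrays. Those of NK cell, endothelial and erythroid markers overlapped the controls. The part of any cell type in the Egr1 and Egr2 differences was not tested, and in whole thymus fewer cells of a type and less RNA per cell cannot be told apart.

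Egr3, which is known to be induced with Egr1 and Egr2, showed another pattern with a wide spread. Its signal was 81.8 and 75.2 in the controls, 79.1 and 122 at day 2 of estradiol, 48.9 and 72.4 at day 3, and 74.7 and 47.6 at day 6. Under genistein it was 34.0 and 49.2 on day 2, 66.2 and 99.9 on day 3, and 42.2 and 71.5 on day 6. The widest separation was between the treatments at day 2, where estradiol was 2.01-fold higher than genistein with 16 added to each signal. The log2 difference was 1.01 ± 0.282 (interval 0.40 to 1.61), and limma gave an adjusted p of 0.368. Without the added 16, the mean signals were 100.7 for estradiol and 41.6 for genistein. Both genistein signals of day 2 lay near 44.5, the mean below which probe sets were left out, and have no detection call here. Without the estradiol array of that day at another scale the difference was 0.74 (limma adjusted p = 0.564). Genistein day 2 against control gave -0.73 (limma adjusted p = 0.376), and the interaction of treatment and day had an unadjusted p of 0.0123 and an adjusted p of 1.0. Egr3 also had the largest difference between replicates of any gene of the set in 5 of the 7 groups.

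Nr4a1 encodes the orphan nuclear receptor Nur77, whose transcription is widely used to report T cell receptor signal strength. Its signal was 489 and 432 in the controls, 358 and 487 at day 2 of estradiol, 517 and 486 at day 3, and 335 and 414 at day 6. Under genistein it was 433 and 425 on day 2, 429 and 511 on day 3, and 501 and 444 on day 6. Estradiol day 6 lay below the controls and below genistein day 6, while the replicates of estradiol day 2 spanned most of the range.

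The differences of Nr4a1 were -0.29 for estradiol day 6 against control (limma adjusted p = 0.465), -0.33 for estradiol against genistein at day 6, with an interval of -0.69 to 0.03 (adjusted p = 0.423), and -0.10 for the mean of estradiol days (adjusted p = 0.778). For the mean of genistein days the difference was -0.01 with an interval of -0.31 to 0.28 (limma adjusted p = 0.984).

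Fos, Jun and Junb are subunits of AP-1, a dimeric factor that binds TGAGTCA sites and that Fos can form only with a Jun partner. Fos had signals of 88.6 and 64.4 in the controls, 69.2 and 70.0 at day 2 of estradiol, 68.0 and 77.7 at day 3, and 64.9 and 61.9 at day 6. Under genistein it had 77.8 and 66.2 on day 2, 71.6 and 91.5 on day 3, and 93.2 and 81.1 on day 6. The control pair alone spanned most of the other arrays, and the clearest separation was again between the treatments at day 6. That difference was -0.38 with an interval of -0.78 to 0.03 (limma adjusted p = 0.409), and it lay between -0.46 and -0.25 over 26 alternative settings. The highest Fos signal was on the array with the Gapdh ratio of 1.503, and over 14 arrays Fos and that ratio correlated at r = 0.403 (rho 0.275). Over the mean of days Fos differed from control by -0.12 for estradiol and 0.06 for genistein (limma adjusted p = 0.761 and 0.910).

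Jun was 92.1 and 89.9 in the controls, 119 and 109 at day 2 of estradiol, 89.7 and 104 at day 3, and 85.2 and 88.8 at day 6. Under genistein it was 90.5 and 97.8 on day 2, 76.0 and 87.7 on day 3, and 122 and 91.7 on day 6. Estradiol day 2 was highest in mean, and the higher of its arrays is the one with the Gapdh ratio of 1.27. The high genistein array is the one with the Gapdh ratio of 1.503. Over 14 arrays Jun and that ratio correlated at r = 0.559 (rho 0.037). Over the mean of days Jun differed from control by 0.10 for estradiol and 0.03 for genistein (limma adjusted p = 0.779 and 0.950), and between treatments by 0.07 with an interval of -0.14 to 0.28. The untested probe set of Jun read 5.90 to 49.8 and correlated with the tested one at r = -0.210.

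Junb was 163 and 89.1 in the controls, 151 and 160.4 at day 2 of estradiol, 180.3 and 162 at day 3, and 141 and 156 at day 6. Under genistein it was 164 and 153 on day 2, 155 and 171 on day 3, and 141 and 144 on day 6. All 12 treated arrays lay between 141 and 180.3, and the second control alone stood apart from the rest. Against control over the mean of days Junb gave 0.34 for estradiol and 0.31 for genistein (limma adjusted p = 0.359 and 0.505), comparisons that share both control arrays. Without control replicate 1 these became 0.73 and 0.70 and passed the test (limma adjusted p = 0.0241 and 0.0352), while without control replicate 2 they became -0.04 and -0.07. Between the treatments, which leaves the controls out, the difference was 0.03 with an interval of -0.22 to 0.28 (limma adjusted p = 0.922).

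Ier2, a nuclear protein of the immediate early class, was the gene of the set with the largest difference of genistein from control over the mean of days. At day 2 the differences of Egr3 (-0.73), Egr2 (-0.41) and Junb (0.35) were larger in size than the 0.28 of Ier2. Its signal was 230.2 and 185 in the controls, 261 and 246 at day 2 of genistein, 305 and 317 at day 3, and 328 and 258 at day 6. Under estradiol it was 237 and 228 on day 2, 263 and 237 on day 3, and 232 and 216 on day 6. All 6 genistein arrays lay above both controls, under each of 4 ways of scaling, as they did for 4.97% of tested genes. None of the 9 genes had all genistein arrays below the controls, as 3.57% of tested genes did.

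The differences of Ier2 from control were 0.28 at day 2 of genistein, 0.56 ± 0.157 at day 3 and 0.47 at day 6 (limma adjusted p = 0.495, 0.811 and 0.378). Over the mean of days the difference was 0.43 with an interval of 0.16 to 0.71, a 1.35-fold level (limma adjusted p = 0.328), against 0.18 for estradiol (adjusted p = 0.551). Set against genistein, with days averaged, estradiol gave -0.26 ± 0.0906 (limma adjusted p = 0.166). The highest Ier2 signal was on the array with the Gapdh ratio of 1.503, and over 14 arrays Ier2 and that ratio correlated at r = 0.538 (rho 0.367). The difference between the treatments over the mean of days was -0.20 without that array and -0.21 with the Gapdh ratio as a covariate (limma adjusted p = 0.340 and 0.264), and that of genistein day 6 from control was 0.30 and 0.29. Without control replicate 2 the genistein mean was 0.29 above control.

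Cd5, a surface protein that dampens receptor signalling and whose level is set by the strength of the selecting signal, had signals of 521 and 465 in the controls, 417 and 557 at day 2 of estradiol, 556 and 539 at day 3, and 436 and 422 at day 6. Under genistein it had 524 and 481 on day 2, 615 and 489 on day 3, and 616 and 466 on day 6. Arrays of estradiol day 6 lay below both controls and below both day 6 genistein arrays but within the range of estradiol day 2, and those of estradiol day 3 lay above both controls. Cd5 differed from control by -0.02 for the mean of estradiol days, with an interval of -0.33 to 0.28, and by 0.10 for the mean of genistein days (limma adjusted p = 0.957 and 0.824). At day 6, estradiol against genistein gave -0.31 ± 0.175 (limma adjusted p = 0.462), and -0.11 without the genistein array with the Gapdh ratio of 1.503 (adjusted p = 0.895).

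**Figure D2:**
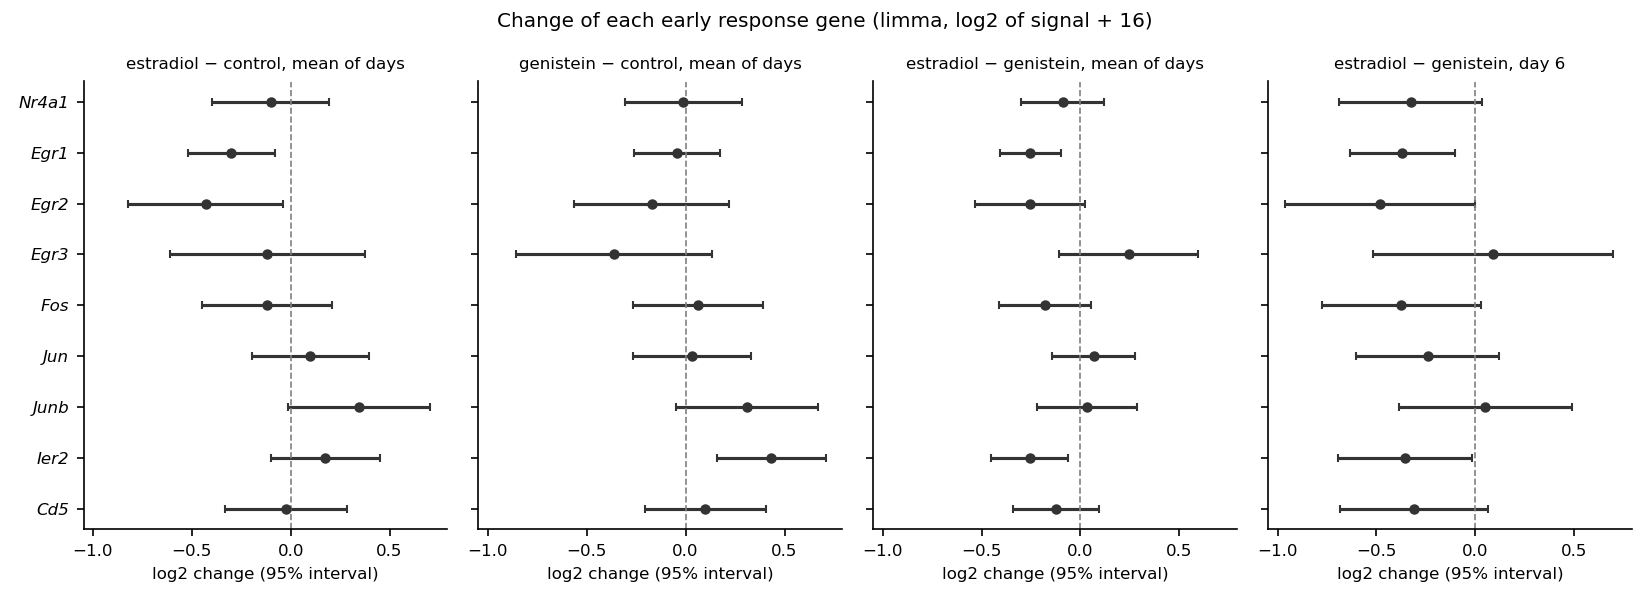
Log2 change of each early response gene (points) with its 95% interval from limma (lines) in 4 comparisons, 1 panel each; the vertical line marks no change. No gene passed the adjusted test; the interval of Egr1 lies below 0 for estradiol over the mean of days against control and for estradiol against genistein.

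In a ranking of the 7 group means, estradiol day 6 was among the lowest 2 for 7 of the 9 early response genes, against 34.1% of all tested genes, and genistein day 3 among the highest 2 for 7, against 22.4%. Both day 6 estradiol arrays lay below both day 6 genistein arrays for Nr4a1, Egr1, Egr2, Fos, Jun, Ier2 and Cd5, which is 7 of 9 genes, against 28% of all tested genes. This count was 6 with quantile normalization, without Jun, and 5 with arrays centred on their medians, without Jun and Cd5. Against control, 6 genes lay wholly below (Nr4a1, Egr1, Egr2, Egr3, Jun and Cd5), against 24.2% of all genes, and none lay above in either comparison, against 23.4% and 25.3%.

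The median difference of the 9 genes at day 6 was -0.33 between the treatments, where that of all genes was -0.03, and 3 of 9 had an unadjusted p under 0.05 by limma (Egr1, Egr2 and Ier2), against 13.3% of genes. One of the 2 genistein arrays of that day is the one with the Gapdh ratio of 1.503, and without it the median was -0.19 and 1 of 9 had such a p. With the Gapdh ratio as a covariate the median was -0.23, again with 1 of 9. Without estradiol day 6 replicate 1 the count was 0, and without genistein day 6 replicate 2 it was 4. Since the arrays of a pair enter every gene, the 9 values are not independent of one another. On the same arrays, the summed signal of 9 double-positive thymocyte markers was 10646 to 11580 at day 6 of estradiol, below the 11905 to 12554 of genistein day 6, the 11873 to 12204 of the controls and every other group (11781 to 13505). Such a sum weighs the brightest markers most. Gene by gene, estradiol was higher than genistein at day 6 for 5 of the 9 and lower for 4, with a median of 0.06. Against control at day 6 it was higher for 4 and lower for 5, with a median of -0.12. Of those 9 markers Cd8b1 alone passed a test, between the treatments with days averaged (-0.28 ± 0.0594, limma adjusted p = 0.0345). The sum of 7 general T cell markers was 10901 to 11492 at day 6 of estradiol, 10090 to 11532 in the controls and 11389 to 12215 at day 6 of genistein. At day 2 of estradiol the double-positive sum was 11872 to 12897. The part of cell composition in the low values of either day was not tested.

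**Figure D3:**
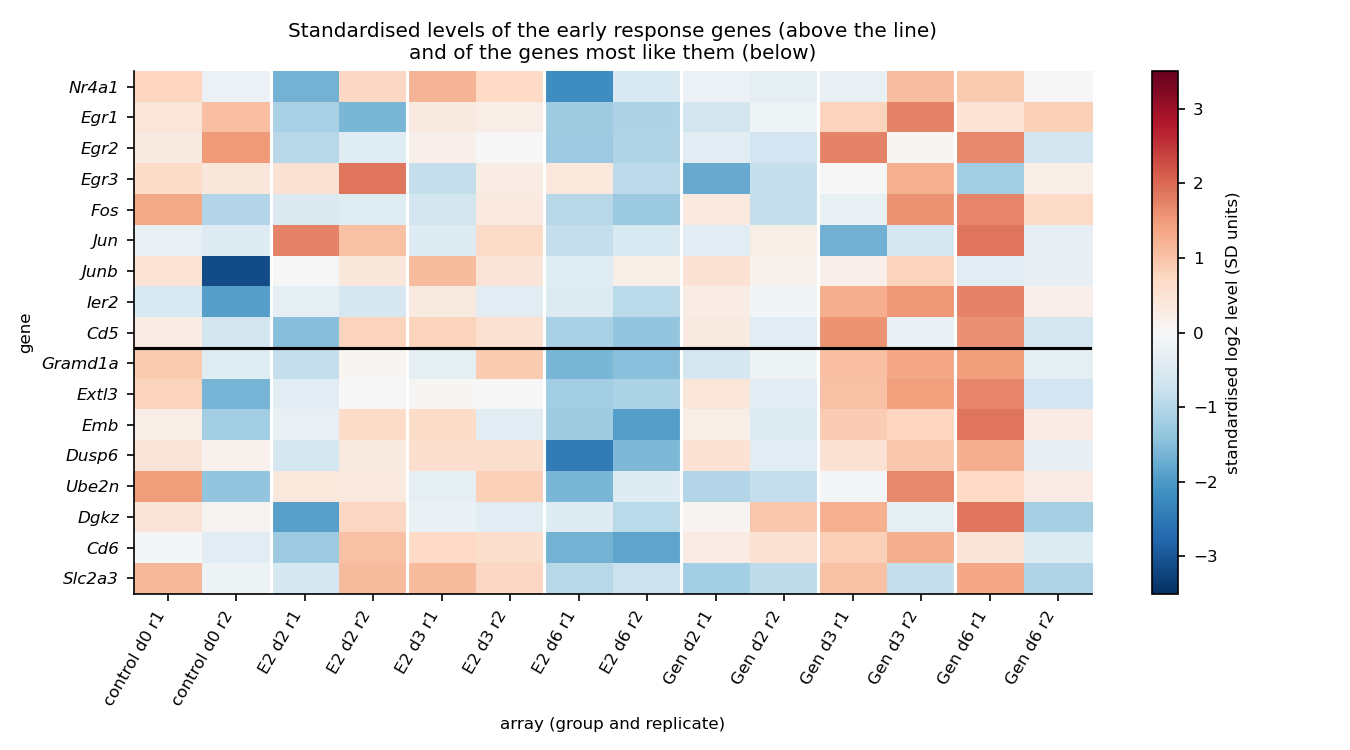
Log2 levels of the 9 early response genes and of 8 genes with a like pattern (rows) on the 14 arrays (columns), each row scaled to mean 0 and SD 1 over the arrays, with colour giving the scaled level. Most early response genes are low in both columns of estradiol day 6, as is Dusp6, which was picked for its likeness to them. The control columns of Junb differ most.

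Of the 36 pairs that the 9 genes form, 28 correlated positively over the 14 arrays, with a median r of 0.269. The closest were Egr2 with Cd5 (r = 0.702), Nr4a1 with Cd5 (0.670) and Fos with Ier2 (0.646). Replicate differences within groups also correlated for these pairs (r = 0.664, 0.614 and 0.734 over 7 groups), with the same sign in 5 of the 7 groups for each pair. Egr1 and Egr2, at r = 0.641 over arrays, differed in this respect, with r = 0.951 over group means and -0.366 over replicate differences. The lowest pair was Egr2 with Junb at -0.356. All of these points share arrays, pairs of other genes were not counted in the same way, and the values are descriptions.

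Across all tested genes, the 5 whose levels most resembled the mean of the 8 nuclear early response genes over 14 arrays were Gramd1a (r = 0.928), Extl3 (0.870), Emb (0.851), Dusp6 (0.847) and Ube2n (0.833). Dusp6, the phosphatase that switches off Erk, was 163 and 153 in the controls, 87.2 and 106 at day 6 of estradiol, and 194 and 139 at day 6 of genistein. Its day 6 estradiol arrays lay below all other arrays, with differences of -0.63 ± 0.180 from control and -0.69 ± 0.180 from genistein (limma adjusted p = 0.132 and 0.134). Dusp6 was picked for its likeness to the mean of the 8 nuclear genes, which was itself lowest on those 2 arrays (-0.88 and -0.77). Its low level there is thus tied to the way it was picked and is no separate result. The genes nearest to Cd5 were Emb (r = 0.795), Dgkz (0.790), Cd6 (0.782), Slc2a3 (0.780) and Dusp6 (0.764). Cd6 is a surface receptor closely related to Cd5, and Dgkz encodes a kinase that removes diacylglycerol, the lipid that activates Ras in receptor signalling.

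Other genes of the response were taken from lists. Of 18 relatives of the Egr, Nr4a and AP-1 families, 7 were bright enough to be tested, and none passed in any of the 12 comparisons. At day 6 of estradiol the median change of these 7 was 0.27 from control, with 4 higher and 3 lower. In that comparison 4 of the 7 had an unadjusted p under 0.05 by limma, where 14.8% of all tested genes did. From genistein at day 6 the median was 0.13, again with 4 higher and 3 lower, and 1 had such a p. Jund and Myc, which many cells express without a signal, gave 0.01 and 0.07 for the mean of estradiol days against control and 0.18 and 0.13 against genistein (limma adjusted p = 0.399 and 0.460 for the latter). Of 24 tested feedback inhibitors, which limit signalling or degrade early response transcripts, 1 passed and rose. Zfp36l2, an RNA-binding protein that destabilises AU-rich transcripts, was higher by 1.14 ± 0.223 at day 6 of estradiol than in control (limma adjusted p = 0.0351), and it passed in 17 of 27 alternative settings.

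Of 22 tested genes of selection and maturation, such as Itm2a and Cd28, and of 24 upstream signalling and transcription factor genes, such as Elk4 and Mef2d, none passed in the 12 comparisons. For the mean of estradiol days Itm2a gave -0.09, Cd28 0.16, Elk4 0.48 and Mef2d 0.14. The median change of these lists for that comparison was 0.07 for the relatives, 0.07 for the feedback inhibitors, 0.11 for selection genes and -0.04 for upstream genes, beside 0.01 for all genes.

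Early response genes are also known to answer stress and handling, so stress and glucocorticoid genes were set beside them. Of 11 tested stress and heat shock genes, Hmox1, which breaks down heme, rose by 1.16 ± 0.175 over the mean of estradiol days (limma adjusted p = 0.00889), which held in 23 of 26 alternatives. Hsph1, a heat shock chaperone, fell by 0.71 under estradiol and by 0.97 under genistein (limma adjusted p = 0.0391 and 0.0312), and these calls held in 12 and 11 of 27 alternatives. Of 9 tested glucocorticoid-responsive genes, Tsc22d3, known as GILZ, rose by 1.03 under estradiol and by 1.07 under genistein (limma adjusted p = 0.0127 and 0.0412), calls that held in 24 and 10 of 27 alternatives. Mt2, a metallothionein, rose by 0.78 under estradiol (limma adjusted p = 0.0488) and passed in 7 of 27 alternatives. The comparisons of both treatments share the 2 control arrays, and the relation of these genes to the early response genes was not tested.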

How the data were processed

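Signals of 14 arrays were used, an intensity computed by the authors with MAS5 5.0, per the submitters' processing notes. No image files or detection calls were used here. Each array was multiplied to a 2%-trimmed mean of 150.04 over all probe sets, 16 was added and the log2 taken. Then 64 control probe sets were removed. The lowest 40% of the rest by mean were left out, leaving 13575 probe sets with a mean signal of 44.5 or more. The annotation gave 1 gene symbol for 20393 probe sets, several for 691 and none for 1606, and 20392 of the single symbols matched the RefSeq gene table. Where a gene had several probe sets, the one with the highest mean stood for it.

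limma 3.58.1 in R 4.3.3 fitted 7 group means with a trended eBayes, and Benjamini-Hochberg adjustment ran over all probe sets within each comparison, with calls made at an adjusted p under 0.05. Residual degrees of freedom were 7, and moderation raised them to 13.74. The procedure was tested on simulated data.

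All member genes were described. In a list, up to 4 genes that passed were named, or the 2 with the highest mean where none passed. Nearest genes were the 5 with the highest Pearson's r, and Rag1, Cd4 and Cd8a were looked up in every case. Members and lists were chosen with earlier results of these data known. Dusp6 is described further for its place among the nearest genes of both targets, a choice made after its values were seen.

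Alternatives were a pseudocount of 1 or 64, a filter of the lowest 60% or none, medians as the centre, quantile normalization, values as deposited, no trend, only the groups compared, any probe set of a gene, the replicate number as a block, the deposited scale as a term, the Gapdh ratio as a covariate, each array left out in turn and the 3 arrays at another scale left out. Leaving out the 2 arrays with the highest Gapdh ratio was chosen after seeing the data. Figures were drawn with matplotlib 3.10.9.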

Additional observations from a re-analysis of the deposited data

How the results depend on the processing

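In no alternative other than the values as deposited and leaving out control replicate 1 did any of the 9 genes pass the test in any comparison. With the values as deposited, where 3 arrays stand at a higher scale and the median of all probe sets shifts by 1.01 (log2) for estradiol day 3 against control and for estradiol against genistein at day 3, 8 genes passed in each of these comparisons and in the interaction of treatment and day, and 9 for the days of estradiol. Over the mean of days 2 passed against control and 4 against genistein, with median shifts of 0.43 and 0.42. Of the 108 changes 31 changed sign there, and 9 of those passed. The 9 were day 3 of estradiol against control in Egr1 (0.97), Egr2 (0.75) and Fos (0.89), estradiol against genistein at day 3 in Egr1 (0.86), Egr2 (0.74), Fos (0.81), Ier2 (0.73) and Cd5 (1.05), and over the mean of days in Nr4a1 (0.36). The 22 that turned without passing include, between the treatments over the mean of days, Egr1 (0.19), Egr2 (0.16), Fos (0.21), Ier2 (0.18) and Cd5 (0.32), and Egr3 at day 3 against control (0.59) and against genistein (0.54). With each array left out in turn, 0 to 1 genes passed for estradiol day 3 against control, for the mean of estradiol days and for the mean of genistein days. The 1 was Junb without control replicate 1. Of 2970 alternative values of the 108 changes, 99 changed sign other than as deposited, 24 of them where the change itself exceeded 0.1. With the replicate number as a block, 0 of the 9 genes passed. Replicate differences of the 21 pairs of groups correlated between -0.26 and 0.35, and 5 were above 0.1. The labels do not say that a replicate number is shared across groups, and these values do not settle whether it is. Under the block the calls among all probe sets went from 82 to 63 for the mean of estradiol days and from 191 to 145 between the treatments. The 82 became 560 without control replicate 1, 4 without control replicate 2, 38 with no filter, 14 with the scale as a term and 183 with the Gapdh covariate. The 191 became 125, 32 and 146 in the last 3 settings and 75 without the 2 arrays with the highest Gapdh ratio. Comparisons at day 3 of estradiol could not be made without the 3 arrays at another scale.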

Other observations

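Several close relatives of the early response genes were too dim to be tested. Nr4a2 and Nr4a3, the other receptors of the Nur77 family, had signals of 27.7 to 83.4 and of 9.50 to 25.3 over the 14 arrays. Fosb, a further AP-1 subunit, had signals of 19.7 to 63.9, Egr4 had 13.2 to 49.9, and Atf3, a stress-induced factor, had 3.10 to 39.0. A signal at this level has no detection call here, so these ranges do not show whether the genes were expressed.

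Within groups, the 9 genes did not differ between replicates by more than other genes in 4 of 7 groups. The median absolute replicate difference of the 9 genes was 0.17 in the controls (0.22 for all genes), 0.11 at day 2 of estradiol (0.21), 0.07 at day 6 of estradiol (0.12) and 0.10 at day 2 of genistein (0.21). It was larger than that of all genes at day 3 of estradiol (0.14 against 0.12), day 3 of genistein (0.24 against 0.20) and day 6 of genistein (0.33 against 0.20). The last group holds the array with the Gapdh ratio of 1.503.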
